A study of Homo sapiens with 42 samples.

Results

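The Ikaros family comprises 5 zinc finger transcription factor genes, IKZF1 (Ikaros), IKZF2 (Helios), IKZF3 (Aiolos), IKZF4 (Eos) and IKZF5 (Pegasus). They were followed here by their gene symbols, as 5 of the 58721 genes counted in each of 4 tables of polyA RNA sequencing from leukaemia cells with an MLL-AF4 fusion. The members were chosen by name and selected on the levels of IKZF3, which differed between the cell lines and between culture and mice, so the differences in level between lines and sites are described below without a test. No contrast with compounds or guides was part of that rule, but the levels of IKZF3 it used also enter the contrasts of IKZF3. Those contrasts are therefore not independent of the rule, and earlier results of these data were known. The 42 libraries fell into 15 groups. MV4;11, a myeloid leukaemia line, was cultured for 6 h or 24 h with 100 nM of MS41 (a degrader of ENL, the chromatin reader encoded by MLLT1), MS41N, PFI-6 (an inhibitor of the YEATS reader domain of ENL and its paralogue AF9) or the solvent DMSO, with 3 libraries per group. SEMK2, a B-cell precursor leukaemia line, was given 100 nM MS41 or DMSO, again with 3 libraries each, and its labels do not say after which time the cells were collected. A further set of MV4;11 cells carried ENL guide 1, ENL guide 2 or a control guide, with 2 libraries each. The labels call the cells with ENL guides ENL knockouts and do not say whether they were clones or pools. Finally, MV4;11 cells grown in mice were collected after MS41 or vehicle, 3 libraries each, without a stated dose or time, and these libraries were made with a low-input kit. Nothing in the labels states that replicates came from different cultures or mice. The p-values therefore reflect the spread among these libraries alone, which may be technical.

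Ikaros family proteins bind DNA through a cluster of C2H2 zinc fingers near the amino terminus, most of them at sites that hold the core GGGAA, and pair with one another through another finger pair at the carboxy terminus. Ikaros and Aiolos recruit the NuRD chromatin remodelling complex and other corepressors and are needed for B-cell development, and Ikaros is a tumour suppressor in B-cell precursor leukaemia. Helios and Eos are best known from regulatory T cells, and Pegasus is expressed in many tissues. Ikaros and Aiolos are also the proteins that thalidomide-type drugs direct to the cereblon ubiquitin ligase, so that protein and RNA levels can part. Only RNA was measured here.

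IKZF1 (ENSG00000185811) lies on the plus strand of chromosome 7 at 50304068 to 50405101 (GRCh38, GENCODE 29). IKZF2 (ENSG00000030419) lies on the minus strand of chromosome 2 at 212999691 to 213152427. IKZF3 (ENSG00000161405) lies on the minus strand of chromosome 17 at 39757715 to 39864188. IKZF4 (ENSG00000123411) lies on the plus strand of chromosome 12 at 56007659 to 56038435. IKZF5 (ENSG00000095574) lies on the minus strand of chromosome 10 at 122990806 to 123008817. The upstream sequences of the 4 members found in the RefSeq promoter table (GRCh38.p14) are shown because these members moved in opposite directions under MS41, and to show how unlike their upstream DNA is in base composition and in the family's own core motif. Each is the part of the 250 bases before the most upstream RefSeq start that lies outside every annotated exon, on the gene's strand. The starts of RefSeq and GENCODE differ, and the IKZF1 stretch lies within the gene as GENCODE gives it, between its exons. GGGAA or its reverse complement TTCCC is in capitals.
IKZF1, chr7:50304466-50304668, plus strand: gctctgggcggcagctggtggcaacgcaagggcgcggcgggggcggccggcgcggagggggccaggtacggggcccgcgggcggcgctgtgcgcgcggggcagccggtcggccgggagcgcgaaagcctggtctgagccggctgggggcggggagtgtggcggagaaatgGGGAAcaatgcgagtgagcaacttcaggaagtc
IKZF2, chr2:213152457-213152706, minus strand: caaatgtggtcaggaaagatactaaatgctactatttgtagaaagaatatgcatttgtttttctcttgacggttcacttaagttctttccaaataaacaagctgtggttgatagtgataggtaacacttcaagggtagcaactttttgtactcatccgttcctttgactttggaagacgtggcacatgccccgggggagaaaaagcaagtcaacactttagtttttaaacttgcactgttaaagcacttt
IKZF4, chr12:56007254-56007503, plus strand: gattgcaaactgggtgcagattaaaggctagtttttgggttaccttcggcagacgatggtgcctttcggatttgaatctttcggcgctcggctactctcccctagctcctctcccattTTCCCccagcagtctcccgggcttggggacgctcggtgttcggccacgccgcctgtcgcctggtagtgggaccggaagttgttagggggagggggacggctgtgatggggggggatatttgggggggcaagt
IKZF5, chr10:123008818-123008978, minus strand: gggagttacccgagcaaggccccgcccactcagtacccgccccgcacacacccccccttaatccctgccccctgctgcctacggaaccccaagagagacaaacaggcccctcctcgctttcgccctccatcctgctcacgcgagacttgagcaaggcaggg
The IKZF1 stretch of 203 bases holds 1 GGGAA on the gene's strand, 80 bases before the start, and has a GC content of 75.4%. The IKZF4 stretch of 250 bases holds 1 copy on the other strand, 132 bases before the start, and has a GC content of 59.6%. The stretches of IKZF2 (250 bases, GC content 38.0%) and IKZF5 (161 bases, GC content 65.8%) hold no copy on either strand. Among 27305 promoter windows shortened to the same bases, the motif was found on either strand in 52.1% for the bases of IKZF1, in 58.9% for those of IKZF2 and IKZF4, and in 43.3% for those of IKZF5, so neither its presence nor its absence sets these members apart. The IKZF5 stretch lies between the starts of IKZF5 and ACADSB, which are transcribed away from each other and begin 162 bases apart. IKZF3 is named only.

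All 5 members passed the filter on low counts in each of the 4 tables. IKZF3 passed in the MV4;11 tables through the groups where it was highest, so its passing supports nothing. Total counts per library, in units of 1000000, were 102.3 to 156.5 for MV4;11 with compounds, 77.2 to 87.8 with guides, 155.9 to 230.6 for SEMK2 and 99.5 to 126.7 in mice. The lines matched their labels: the B-lineage factor PAX5 stood at 971 to 1039 counts per 1000000 (CPM) in SEMK2 and at 0.53 to 1.53 CPM in MV4;11 with compounds. CD33, a myeloid surface protein, was at 7.21 to 7.79 CPM in SEMK2 and at 75.6 to 102 CPM in MV4;11 with compounds. The summed level of 11 myeloid markers was 137 to 180 CPM in SEMK2 and 956 to 3326 CPM in MV4;11 with compounds. Of these, LYZ alone was at 4.95 to 6.14 CPM in SEMK2 and at 491 to 2733 CPM in MV4;11 with compounds. Not every marker was lower in SEMK2: CEBPA was at 64.6 to 79.3 CPM there and at 48.3 to 68.9 CPM in MV4;11 with compounds. MLLT1, the gene the guides target, averaged 186 CPM with ENL guide 1 and 125 CPM with ENL guide 2, against 236 CPM with the control guide, and both were lower in edgeR's quasi-likelihood test (Benjamini-Hochberg adjusted p = 0.012 and 1.8e-05). Residual MLLT1 RNA does not measure the protein, and the guides' cut sites are not given in the sources used here.

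IKZF1 was the dominant family member in every group, and the order of the others depended on the line. To compare members, CPM were divided by the exonic length of each gene, 8.15 kb for IKZF1, 9.99 kb for IKZF2, 10.01 kb for IKZF3, 5.58 kb for IKZF4 and 4.67 kb for IKZF5. In the 24 MV4;11 libraries with compounds or DMSO, the level of IKZF1 was 42.7 to 58.5 CPM per kb. It was followed by IKZF5 at 10.8 to 14.4, IKZF4 at 2.16 to 3.0, IKZF2 at 0.761 to 1.19 and IKZF3 at 0.00130 to 0.0314 CPM per kb. No 2 neighbours in that order overlapped. With guides the same order held, with IKZF1 at 37.1 to 48.1, IKZF5 at 5.82 to 6.74, IKZF4 at 2.55 to 2.95, IKZF2 at 0.369 to 0.600 and IKZF3 at 0.00133 to 0.0141 CPM per kb. In mice it held as well, with IKZF1 at 41.5 to 50.7 and IKZF3 at 0 to 0.0227 CPM per kb.

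SEMK2 cells had a different family make-up, with IKZF2 above IKZF4 and IKZF3 well within the measured range. IKZF1 was again highest at 25.3 to 29.5 CPM per kb, followed by IKZF5 at 10.7 to 12.6, IKZF2 at 5.12 to 7.99, IKZF4 at 2.14 to 2.43 and IKZF3 at 1.05 to 1.99 CPM per kb, with no overlap between neighbours. As a mean share of the family's summed CPM per kb, IKZF1 made up 51.9% in SEMK2 with MS41 and 59.2% with DMSO, and 74.1% to 81.7% across the MV4;11 groups. IKZF2 made up 15.7% in SEMK2 with MS41 and 11.0% with DMSO, and at most 2.01% in MV4;11 groups. IKZF3 made up 3.96% in SEMK2 with MS41 and 2.23% with DMSO, and at most 0.0336% in MV4;11 groups.

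**Figure D1:**
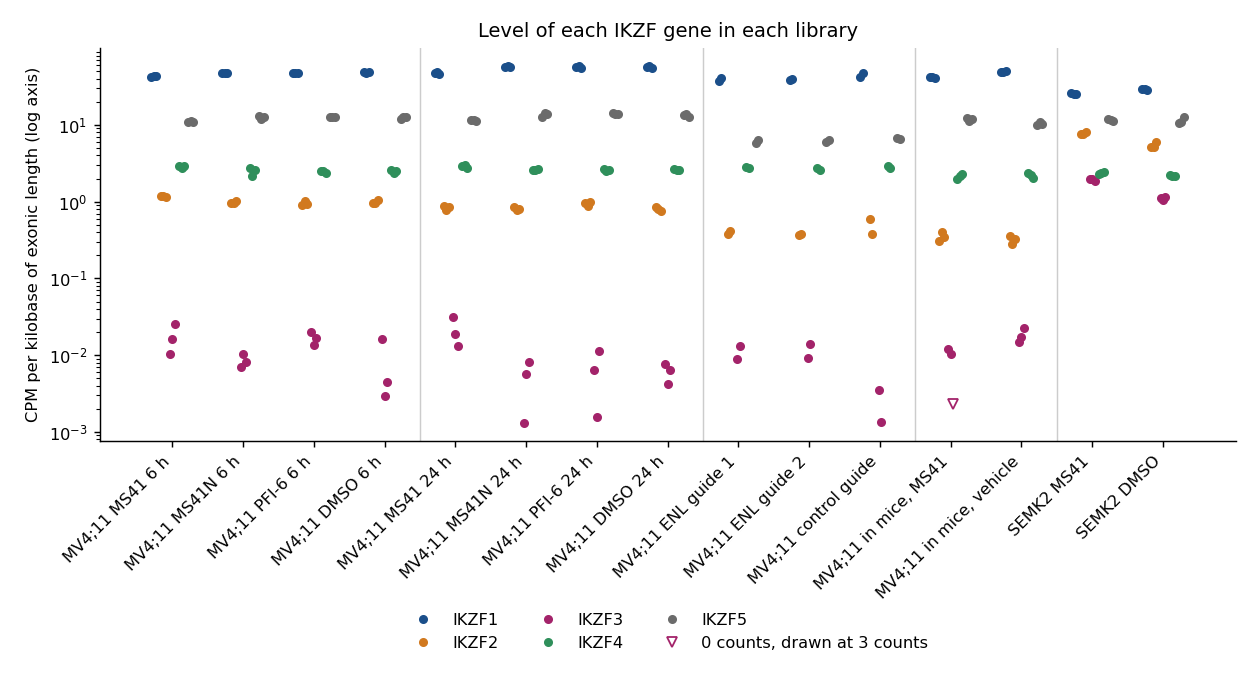
Level of each Ikaros family gene in CPM per kb of exonic length (log axis) in each of the 42 libraries, by group; a library with 0 counts is drawn as an open triangle at the value of 3 counts. IKZF1 was the highest member in every group, and IKZF3 lay at 1.05 to 1.99 CPM per kb in SEMK2 against at most 0.0314 in MV4;11 with compounds or DMSO.

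**Figure D2:**
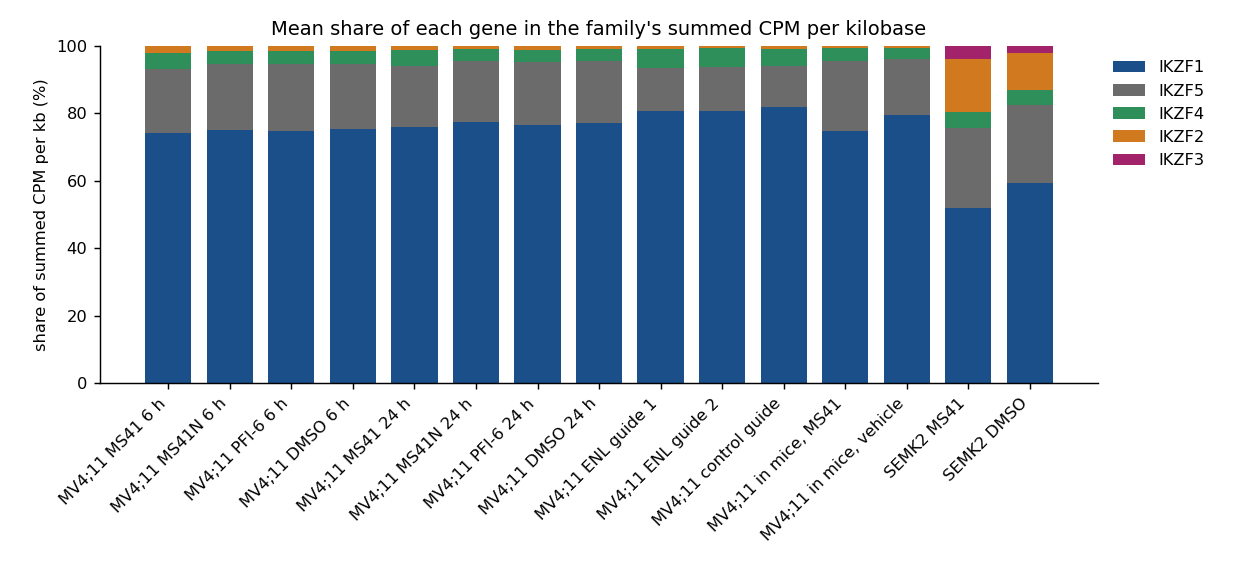
Mean share (%) of each member in the summed CPM per kb of the 5 genes, stacked for each of the 15 groups. IKZF1 took 51.9% in SEMK2 with MS41 and 59.2% with DMSO, and IKZF3, at most 0.0336% in MV4;11 groups, was visible only in SEMK2.

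Set beside each other across tables, the levels of DMSO-treated cells differed most for IKZF3. IKZF3 averaged 11.0 CPM in SEMK2 with DMSO, which is 139 times the 0.0792 CPM of MV4;11 after 6 h of DMSO and 180 times the 0.0610 CPM after 24 h. The corresponding ratios of SEMK2 to MV4;11 at 6 h and 24 h were 5.52 and 6.71 for IKZF2, 0.601 and 0.511 for IKZF1, 0.874 and 0.835 for IKZF4, and 0.913 and 0.849 for IKZF5. The tables were scaled separately and the lines were not sequenced in one table, so line and table cannot be told apart. These ratios describe the levels and have no test. With all tables scaled together the IKZF3 ratios were 129 and 169.

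The 2 other MV4;11 tables also sat apart from the DMSO culture for some members. In mice with vehicle, IKZF3 was 2.30 and 2.99 times its level after 6 h and 24 h of DMSO, IKZF2 was 0.328 and 0.399 times its level, and IKZF1 was 1.02 and 0.871 times its level. With the control guide, IKZF5 was 0.536 and 0.499 times its level after 6 h and 24 h of DMSO, IKZF2 was 0.50 and 0.608 times and IKZF1 0.927 and 0.788 times. Library kit, growth site and table cannot be told apart in these ratios.

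In SEMK2, MS41 raised IKZF3 and IKZF2 and lowered IKZF1, while IKZF4 and IKZF5 did not pass the test. IKZF3, the Aiolos gene, stood at 19.7, 19.9 and 18.8 CPM with MS41 and at 11.0, 10.5 and 11.4 CPM with DMSO (3932, 3307 and 3032 counts, against 1719, 1713 and 2633). All 3 MS41 libraries lay well above all 3 DMSO libraries. The difference was 0.83 on the log2 scale (SE 0.06, 95% confidence interval 0.69 to 0.96, edgeR adjusted p = 1.2e-05).

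IKZF2, the Helios gene, stood at 75.5, 76.0 and 79.8 CPM with MS41 and at 51.8, 51.2 and 59.5 CPM with DMSO. The groups did not overlap, DMSO replicate 3 being the nearest to the MS41 libraries. The log2 difference was 0.51 (SE 0.06, edgeR adjusted p = 0.00037). IKZF1, the Ikaros gene, stood at 210, 208 and 206 CPM with MS41 and at 240, 240 and 232 CPM with DMSO, again without overlap. Its log2 difference was -0.19 (SE 0.03, edgeR adjusted p = 0.012), and the adjusted p ranged from 0.072 to 0.15 when any library other than DMSO replicate 3 was left out. The fit called 1.36% of the 21433 genes tested, 0.84% higher and 0.518% lower, and the groups did not overlap for 18.2% of genes. Of the 5 members 3 were called, but members were chosen with earlier results of these data known, so that count supports nothing.

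IKZF4 stood at 12.7, 13.3 and 13.6 CPM with MS41 and at 12.3, 12.1 and 11.9 CPM with DMSO in SEMK2, without overlap but short of the threshold (log2 difference 0.12, 95% confidence interval -0.02 to 0.26, edgeR adjusted p = 0.46). IKZF5 stood at 55.4, 54.2 and 52.9 CPM with MS41 and at 50.1, 50.7 and 58.7 CPM with DMSO, where DMSO replicate 3 was the highest library of all (log2 difference 0.03, 95% confidence interval -0.10 to 0.15, edgeR adjusted p = 0.90). The calls of IKZF3 and IKZF2 held when each library was left out, at 0.79 to 0.86 for IKZF3 and 0.47 to 0.59 for IKZF2. The count of genes called did not: it was 291 with all libraries, 2986 without DMSO replicate 3, the deepest library, and 100 at its lowest. The changes ran in opposite directions, and the summed level of the family was 49.1 ± 0.289 CPM per kb with MS41 and 49.2 ± 0.929 with DMSO (SD, n = 3 each).

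**Figure D3:**
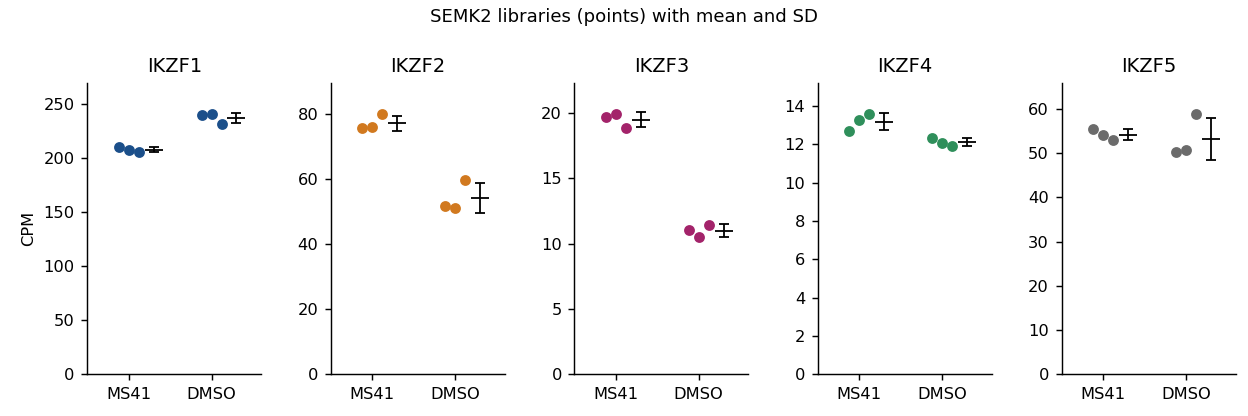
CPM of each Ikaros family gene in the 3 MS41 and 3 DMSO libraries of SEMK2, 1 panel per gene, with points for libraries and lines for group means. IKZF3 and IKZF2 were higher and IKZF1 lower with MS41, without overlap between the groups.

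The summed level of B-lineage markers overlapped between the SEMK2 groups. Over 11 genes it was 1797 to 1823 CPM with MS41 and 1789 to 1899 CPM with DMSO, and 1 of the 10 tested passed, MS4A1, at 1.19 CPM with MS41 and 0.522 CPM with DMSO. Of all counts, mitochondrial genes took 2.98% to 3.23% with MS41 and 2.21% to 3.13% with DMSO, and the part of this shift in the results was not tested.

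In MV4;11 cultures, MS41 lowered IKZF1 and IKZF5 at both times and raised IKZF4 by a small amount, with IKZF2 raised at 6 h. IKZF3 passed the test at 24 h, but on few counts and after passing the filter through its highest groups. IKZF1 stood at 348, 353 and 352 CPM after 6 h of MS41 and at 398, 392 and 395 CPM after 6 h of DMSO. The groups lay apart, each with a narrow spread, and the log2 difference was -0.17 (SE 0.02, edgeR adjusted p = 5.0e-08). After 24 h it stood at 393, 397 and 379 CPM with MS41 and at 470, 471 and 453 CPM with DMSO. Again all MS41 libraries were below all DMSO libraries, and the log2 difference was -0.25 (SE 0.02, edgeR adjusted p = 3.0e-13). The 24 h effect minus the 6 h effect was -0.08 (SE 0.03, edgeR adjusted p = 0.051), which did not pass in a test where 26.4% of genes did. It passed with DESeq2 (-0.08, adjusted p = 0.033), with a GC trend removed (-0.12, adjusted p = 0.0044), and without DMSO 24 h replicate 3 (adjusted p = 0.026) or MS41 24 h replicate 2 (adjusted p = 0.032).

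IKZF5, the Pegasus gene, stood at 50.4, 52.3 and 51.2 CPM after 6 h of MS41 and at 55.6, 59.7 and 59.4 CPM after 6 h of DMSO. After 24 h it stood at 53.9, 53.8 and 52.5 CPM with MS41 and at 63.6, 65.7 and 58.6 CPM with DMSO. The groups did not overlap at either time, and DMSO replicate 3 was the lowest of its group at 24 h. The log2 difference was -0.18 at 6 h (SE 0.04, edgeR adjusted p = 0.00022) and -0.23 at 24 h (SE 0.04, edgeR adjusted p = 2.4e-06).

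IKZF2 stood at 11.8, 11.9 and 11.4 CPM after 6 h of MS41 and at 9.54, 9.49 and 10.4 CPM after 6 h of DMSO, without overlap (log2 difference 0.25, SE 0.07, edgeR adjusted p = 0.0036). At 24 h it stood at 8.71, 7.70 and 8.42 CPM with MS41 and at 8.48, 8.13 and 7.61 CPM with DMSO, and the groups overlapped (log2 difference 0.04, 95% confidence interval -0.10 to 0.18, edgeR adjusted p = 0.72). The change between the times was not itself past the threshold (-0.21, SE 0.10, edgeR adjusted p = 0.10).

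IKZF4, the Eos gene, stood at 16.5, 15.5 and 16 CPM after 6 h of MS41 and at 14.4, 13.1 and 14.1 CPM after 6 h of DMSO. At 24 h it stood at 16.4, 16.8 and 15.2 CPM with MS41 and at 14.7, 14.2 and 14.5 CPM with DMSO. The groups were apart at both times by little more than their spread, with log2 differences of 0.21 (SE 0.06, edgeR adjusted p = 0.0069) and 0.15 (SE 0.06, edgeR adjusted p = 0.036). The 6 h call was lost without DMSO replicate 2 (0.17, adjusted p = 0.073). The 24 h call was lost when any library other than MS41 replicate 3 was left out (adjusted p 0.053 to 0.15), with DESeq2 (adjusted p = 0.053) and with the GC trend removed (adjusted p = 0.15).

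IKZF3 was at the edge of detection in MV4;11, so its counts are given. There were 12, 17 and 39 counts after 6 h of MS41 and 24, 4 and 6 after 6 h of DMSO, and 41, 26 and 16 after 24 h of MS41 and 9, 5 and 9 after 24 h of DMSO. The groups overlapped at 6 h, where DMSO replicate 1 was above 2 of the MS41 libraries, and did not overlap at 24 h. The log2 difference was 1.14 at 6 h (SE 0.62, 95% confidence interval -0.13 to 2.40, edgeR adjusted p = 0.20) and 1.79 at 24 h (SE 0.64, 95% confidence interval 0.49 to 3.09, edgeR adjusted p = 0.021). IKZF3 passed the filter through its highest groups, those with MS41 among them, so a call here is no support for an effect. Single libraries decided both calls. The 24 h call was lost without MS41 replicate 1 (1.39, adjusted p = 0.12) or without DMSO replicate 2 (1.58, adjusted p = 0.081). The 6 h difference passed without DMSO replicate 1 (2.23, adjusted p = 0.025).

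MS41 moved much of the transcriptome in this line: 26% of 22711 genes were called at 6 h, 12.2% higher and 13.8% lower, and 44.3% at 24 h, 21.4% higher and 22.9% lower. The groups did not overlap for 37.4% of genes at 6 h and for 50.2% at 24 h. Against that background, 4 of 5 members called at each time is a count on a small family. Members were chosen with earlier results of these data known, so that count supports nothing. The 24 h count includes IKZF3 with its few counts, and the size of most changes was under 0.26 on the log2 scale. The summed family level was 58.1 ± 0.430 CPM per kb with MS41 and 64.5 ± 0.313 with DMSO at 6 h, and 63.0 ± 1.43 with MS41 and 73.9 ± 2.02 with DMSO at 24 h (SD, n = 3 each), most of it IKZF1.

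**Figure D4:**
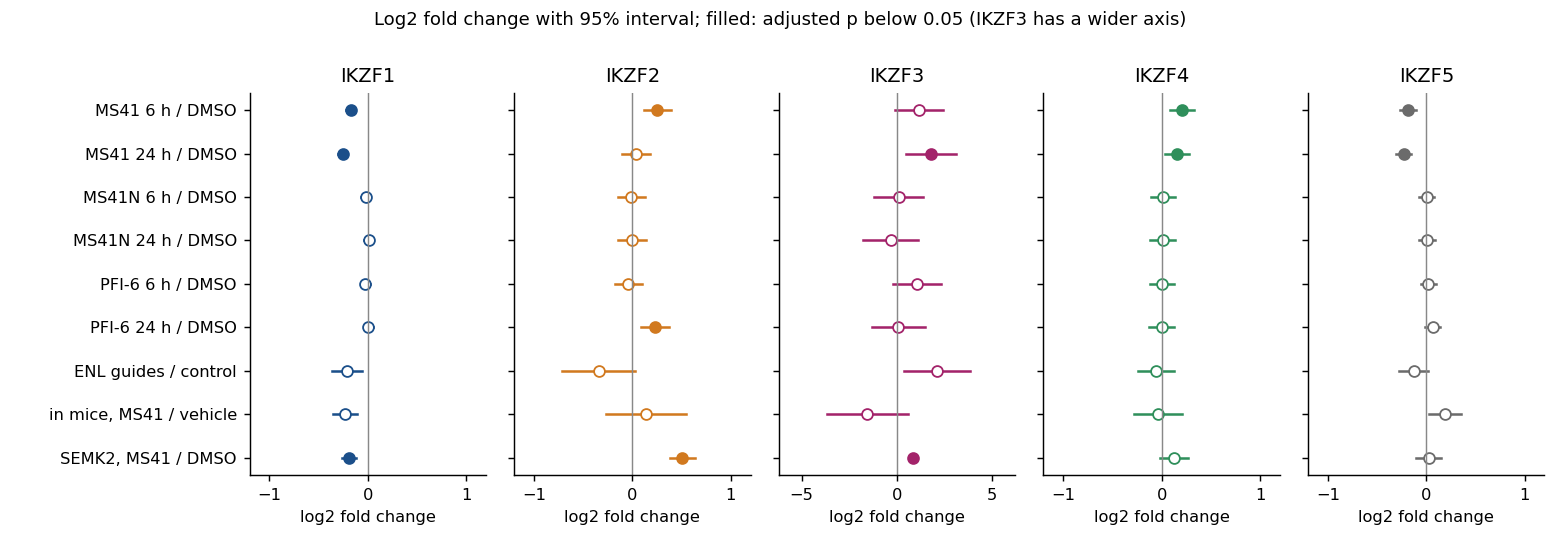
Log2 difference of each Ikaros family gene, with its 95% confidence interval, in each comparison; filled points passed an adjusted p of 0.05 and IKZF3 has a wider axis. IKZF1 was below 0 with MS41 in culture at both times, in SEMK2 and in mice, and IKZF3 was above 0 in the culture comparisons with MS41 and below 0 in mice.

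Other marker genes moved with these changes. The summed level of 11 myeloid markers was 956 to 982 CPM after 6 h of MS41 and 1063 to 1099 CPM with DMSO, and 3135 to 3326 CPM after 24 h of MS41 and 1999 to 2033 CPM with DMSO. LYZ alone was at 491 to 2733 CPM over the compound and DMSO libraries, so it weighs heavily in these sums. At 24 h 8 of the 11 were higher and 2 lower, where 21.4% of all genes were higher and 22.9% lower. The summed level of 11 B-lineage markers was 5.81 to 6.06 CPM after 6 h of MS41 and 4.48 to 4.93 CPM with DMSO, and 4.35 to 5.03 CPM after 24 h of MS41 and 6.04 to 7.27 CPM with DMSO. EBF1, which defines that lineage, was at 0 to 0.0571 CPM in this table. The summed level of 13 T and NK markers was 281 to 304 CPM after 24 h of MS41 and 234 to 236 CPM with DMSO, nearly all of it CD4. CD2 was at 0 and CD3D and CD3E at most at 0.0436 CPM. Mitochondrial genes took 5.86% to 7.04% of counts after 24 h of MS41 and 5.20% to 5.41% with DMSO. Fewer cells of a type and less RNA per cell cannot be told apart in bulk samples, and the part of these shifts in the results was not tested.

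Set against MS41N at the same dose and times, MS41 gave calls for the same members as against DMSO, except that IKZF4 at 24 h missed the threshold. The 24 h call of IKZF3 is among them and is no support for an effect, because IKZF3 passed the filter through its highest groups. MS41N itself gave no call in the family: 0.321% of genes were called against DMSO at 6 h and 0.0352% at 24 h, and no member was among them in edgeR's test. IKZF1 stood at 389, 389 and 390 CPM after 6 h of MS41N and at 465, 472 and 469 CPM after 24 h. Its log2 difference from DMSO was -0.02 at 6 h (95% confidence interval -0.07 to 0.02) and 0.01 at 24 h (-0.03 to 0.06). MS41 and MS41N differed in IKZF1 by -0.15 at 6 h (SE 0.02, edgeR adjusted p = 9.3e-07) and by -0.27 at 24 h (SE 0.02, edgeR adjusted p = 8.2e-14), where 21.8% and 42.4% of genes were called and the groups did not overlap for 32.7% and 48.5%.

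Of the other members, IKZF5 differed between MS41 and MS41N by -0.19 at 6 h (edgeR adjusted p = 0.00017) and by -0.24 at 24 h (adjusted p = 1.3e-06). IKZF2 differed by 0.26 at 6 h (adjusted p = 0.0029) and by 0.04 at 24 h (95% confidence interval -0.10 to 0.18, adjusted p = 0.70). IKZF4 differed by 0.20 at 6 h (adjusted p = 0.012) and by 0.15 at 24 h (95% confidence interval 0.02 to 0.27, adjusted p = 0.0505). The 6 h call of IKZF4 was lost without MS41N replicate 2 (0.11, adjusted p = 0.26) or without MS41 replicate 1 (0.18, adjusted p = 0.064). IKZF3 had 11, 14 and 11 counts after 6 h of MS41N and 2, 6 and 10 after 24 h, and MS41 was above it by 1.05 at 6 h (adjusted p = 0.27) and by 2.11 at 24 h (SE 0.66, adjusted p = 0.0080). The 24 h call of IKZF3 was lost without MS41 replicate 1 (1.71, adjusted p = 0.061) or without MS41N replicate 1 (1.61, adjusted p = 0.067). The comparisons of MS41 with DMSO, MS41N and PFI-6 share the MS41 libraries, and those with DMSO share the DMSO libraries, so they are not independent of each other.

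PFI-6, the YEATS domain inhibitor, gave a call for a single member. IKZF2 stood at 9.70, 8.71 and 9.92 CPM after 24 h of PFI-6 and at 8.48, 8.13 and 7.61 CPM after 24 h of DMSO. The groups did not overlap, as for 27.9% of genes, and the log2 difference was 0.23 (SE 0.07, edgeR adjusted p = 0.023), in a comparison where 12.4% of genes were called. The call was lost when PFI-6 replicate 1 or 3 or DMSO replicate 2 or 3 was left out (adjusted p 0.051 to 0.16), and with the GC trend removed (0.11, adjusted p = 0.53). At 6 h, where 2.05% of genes were called, no member passed in edgeR's test, and IKZF3 had 29, 17 and 21 counts with PFI-6 and 24, 4 and 6 with DMSO (log2 difference 1.06, adjusted p = 0.47).

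The degrader and the inhibitor differed in most members. MS41 minus PFI-6 was -0.15 for IKZF1 at 6 h (SE 0.02, edgeR adjusted p = 1.9e-06) and -0.26 at 24 h (SE 0.02, adjusted p = 2.3e-13). IKZF1 stood at 386, 388 and 391 CPM after 6 h of PFI-6 and at 468, 477 and 454 CPM after 24 h, overlapping DMSO at 24 h. IKZF5 differed by -0.21 at 6 h (adjusted p = 6.3e-05) and by -0.29 at 24 h (adjusted p = 1.4e-08), and IKZF4 by 0.21 (adjusted p = 0.011) and 0.16 (adjusted p = 0.036). IKZF2 was higher with MS41 than with PFI-6 at 6 h (0.30, adjusted p = 0.00089) and lower at 24 h (-0.19, adjusted p = 0.022). IKZF3 differed by 0.08 at 6 h (95% confidence interval -1.12 to 1.28) and by 1.72 at 24 h (adjusted p = 0.027). In all, 4 members passed at 6 h and all 5 at 24 h, where 19.5% and 42.3% of all genes did. The 24 h count includes IKZF3, which has few counts and passed the filter through its highest groups. Members were chosen with earlier results of these data known, so these counts of members support nothing. The IKZF4 call at 6 h was lost without MS41 replicate 1 or PFI-6 replicate 3 (adjusted p 0.057 and 0.069). At 24 h the IKZF4 call was lost with DESeq2 (adjusted p = 0.061), no filter (0.067) and the GC trend removed (0.227), and without MS41 replicate 1 or 2 or PFI-6 replicate 2 or 3 (0.076 to 0.16). The IKZF2 call at 24 h was lost with the GC trend removed (adjusted p = 0.065) and without MS41 replicate 2 or PFI-6 replicate 1 or 3 (0.083 to 0.13), and the IKZF3 call without MS41 replicate 1 or PFI-6 replicate 1 or 2 (0.061 to 0.15). The groups did not overlap for 31.9% of genes at 6 h and 49.3% at 24 h.

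Time in culture also separated the groups. DMSO cells at 24 h had more IKZF1 than at 6 h (log2 difference 0.23, SE 0.02, edgeR adjusted p = 1.2e-11) and less IKZF2 (-0.28, SE 0.07, adjusted p = 0.0010). IKZF5 differed by 0.10 (SE 0.04, adjusted p = 0.034) with overlapping groups. That call was lost with RLE scaling (0.061), upper-quartile scaling (0.116), no filter (0.064) and DESeq2 (0.072), and without 6 h replicate 1 (0.07 on the log2 scale, adjusted p = 0.28), 24 h replicate 1 (0.09, adjusted p = 0.12) or 24 h replicate 2 (0.07, adjusted p = 0.27). In that comparison 30.2% of genes were called. IKZF4 (0.07, adjusted p = 0.49) and IKZF3 (-0.38, adjusted p = 0.74) did not pass. MS41 after 24 h left IKZF1 at 390 ± 9.25 CPM and DMSO after 6 h at 395 ± 3.01 CPM (SD, n = 3 each), with overlapping libraries, and DMSO after 24 h averaged 465 ± 9.93 CPM.

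**Figure D5:**
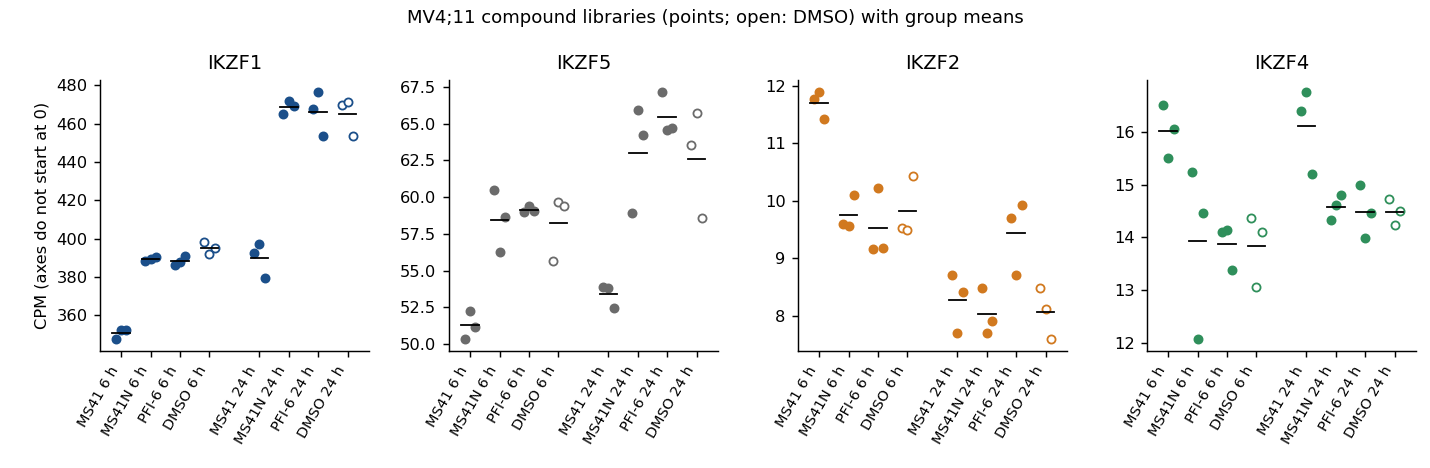
CPM of IKZF1, IKZF5, IKZF2 and IKZF4 in MV4;11 with MS41, MS41N, PFI-6 or DMSO at 6 h and 24 h, with points for the 3 libraries of a group and lines for means; the vertical axes do not start at 0. MS41 lay below the other 3 groups for IKZF1 and IKZF5 at both times, and IKZF2 was highest with MS41 at 6 h and with PFI-6 at 24 h.

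In cells with ENL guides no member passed the test with the filter on low counts and no replicate block. IKZF1 stood at 302 and 334 CPM with ENL guide 1, 313 and 319 CPM with ENL guide 2 and 340 and 392 CPM with the control guide. All 4 ENL libraries were below both control libraries, but control replicate 1 lay close to them. The log2 difference of both ENL guides from the control guide was -0.21 (SE 0.07, 95% confidence interval -0.36 to -0.05, edgeR adjusted p = 0.085). Without control replicate 1 it was -0.31 (adjusted p = 0.0070), and without control replicate 2 it was -0.098 (adjusted p = 0.54). With no filter it was -0.19 (adjusted p = 0.018). In this comparison 10.3% of 17984 genes were called and the groups did not overlap for 36.7%.

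IKZF3 had 8 and 11 counts with ENL guide 1, 8 and 11 with ENL guide 2, and 3 and 1 with the control guide. The ENL libraries were all above the control libraries, at 0.113 ± 0.0264 CPM (SD, n = 4) and 0.0244 ± 0.0157 CPM (SD, n = 2), and the log2 difference was 2.11 (SE 0.79, edgeR adjusted p = 0.11). IKZF2 stood at 3.84 and 4.17 CPM with ENL guide 1, 3.69 and 3.82 CPM with ENL guide 2, and 5.99 and 3.82 CPM with the control guide. Its difference of -0.34 (SE 0.17, adjusted p = 0.23) depended on which control library was kept, at -0.62 (adjusted p = 0.035) without control replicate 2 and 0.02 without control replicate 1. IKZF5 stood at 27.2 and 29.3 CPM with ENL guide 1, 28.2 and 29.6 CPM with ENL guide 2 and 31.5 and 31.0 CPM with the control guide (log2 difference -0.13, SE 0.07, adjusted p = 0.27). IKZF4 differed by -0.06 (adjusted p = 0.72).

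The ENL guides were also set apart. Guide 1 gave calls for 7.48% of genes against the control guide and guide 2 for 4.94%, with no member among them in edgeR's test, and the groups did not overlap for 51.2% and 49.5% of genes. IKZF1 differed from the control guide by -0.20 with guide 1 (adjusted p = 0.17) and by -0.21 with guide 2 (adjusted p = 0.18). Between the ENL guides edgeR called 0 genes, 261 being at an unadjusted p under 0.05. Myeloid markers summed to 2704 to 2880 CPM with ENL guide 1, 2535 to 2678 CPM with ENL guide 2 and 1528 to 1783 CPM with the control guide. Among them LYZ alone ranged from 375 to 1636 CPM over the guide libraries. The part of the myeloid markers in the values of the members was not tested.

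In mice no member passed the test either. The values of same-numbered MS41 and vehicle libraries appeared to have been adjusted to each other before deposit, so the replicate number was kept as a block. IKZF1 stood at 348, 347 and 338 CPM with MS41 and at 401, 400 and 413 CPM with vehicle, without overlap, as for 30% of genes. The log2 difference was -0.23 (SE 0.06, 95% confidence interval -0.36 to -0.11, edgeR adjusted p = 0.38), where 0.0328% of 21337 genes were called, all lower with MS41, and 1623 genes were at an unadjusted p under 0.05. Without the block the IKZF1 difference was -0.23 with an adjusted p of 0.033, with DESeq2 -0.23 with an adjusted p of 0.049, and without the filter on low counts -0.24 with an adjusted p of 0.025.

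IKZF5 stood at 57.4, 51.9 and 56.6 CPM with MS41 and at 46.6, 51.3 and 47.4 CPM with vehicle, without overlap and opposite in direction to the MV4;11 cultures (log2 difference 0.19, SE 0.07, edgeR adjusted p = 0.60). IKZF3 had 12, 11 and 0 counts with MS41 and 15, 21 and 26 with vehicle. In the library with 0 counts, 3 counts would be 0.0234 CPM. The mouse values were rounded and appear adjusted by pair, so this 0 is not a plain count and counting error sets no bound on it. The MS41 libraries were below the vehicle libraries, with a fitted log2 difference of -1.57 (95% confidence interval -3.70 to 0.56, adjusted p = 0.73) and was -0.50 without MS41 replicate 3 or without vehicle replicate 3, the same pair. IKZF2 (3.07, 4.04 and 3.51 CPM with MS41, 3.61, 2.78 and 3.26 CPM with vehicle) and IKZF4 (11.1, 11.9 and 13.0 CPM with MS41, 13.2, 12.4 and 11.4 CPM with vehicle) overlapped. Myeloid markers summed to 7354 to 8607 CPM with MS41 and 7640 to 8924 CPM with vehicle, most of it LYZ, at 6343 to 7874 CPM over these libraries.

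Set side by side, the log2 difference of IKZF1 with MS41 was -0.17 and -0.25 in MV4;11 at 6 h and 24 h, -0.19 in SEMK2 and -0.23 in mice. All 3 MS41 libraries were below the mean of their controls in each, though the pair-adjusted mouse libraries are not independent of their controls. IKZF3 was 1.14, 1.79, 0.83 and -1.57 in the same order, IKZF2 0.25, 0.04, 0.51 and 0.14, IKZF4 0.21, 0.15, 0.12 and -0.04, and IKZF5 -0.18, -0.23, 0.03 and 0.19. Differences between the tables were not tested.

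Genes that border or overlap the members were read beside them. Reads of overlapping genes can be counted for the wrong gene or left uncounted, and the strand setting is not given in the sources used here. PSTK overlaps IKZF5 on the opposite strand and was at 7.56 CPM with MS41 and 6.98 CPM with DMSO at 6 h (log2 difference 0.11, edgeR adjusted p = 0.33). The effect of this overlap on the counts of PSTK and IKZF5 was not tested. ACADSB, which starts beside IKZF5, was lower at 6 h (-0.13, adjusted p = 0.011) and at 24 h (-0.45, adjusted p = 1.6e-13), at 44.9 CPM with MS41 and 61.4 CPM with DMSO at 24 h. In SEMK2, ACADSB differed by 0.01 (adjusted p = 0.97). FIGNL1, 39.0 kb from IKZF1, was higher at 6 h (0.36, adjusted p = 2.2e-10) when IKZF1 was lower, and did not pass at 24 h (-0.03, adjusted p = 0.53). Near IKZF4, SUOX had a log2 difference of 0.16 at 6 h (adjusted p = 0.096) and 0.17 at 24 h (adjusted p = 0.042), and RPS26 was lower at both times (-0.12, adjusted p = 0.0029, and -0.23, adjusted p = 1.7e-08). GRB7 and ZPBP2, on either side of IKZF3, averaged at most 0.0335 CPM and were not tested. Non-coding genes overlap IKZF1 (AC124014.1), IKZF2 (AC093865.1) and IKZF4 (AC034102.3 and AC034102.8), and the processed pseudogenes KRT8P34 and AC090844.1 overlap IKZF3 on its own strand. Reads of these pairs may have been counted for the wrong gene or left uncounted. After 24 h AC090844.1 averaged 0.0303 CPM with MS41 and 0.0298 CPM with DMSO, and KRT8P34 was at 0.

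Among the NuRD and corepressor genes through which Ikaros proteins act, more were lower than higher with MS41 in MV4;11. Of 18 tested, 2 were higher and 8 lower at 6 h, where 12.2% of all genes were higher and 13.8% lower. At 24 h 4 were higher and 10 lower, where 21.4% of all genes were higher and 22.9% lower, with a median log2 difference of -0.10 at 24 h and 0.02 over all genes. At 24 h MTA3 was higher (0.52, at 5.62 CPM with MS41 and 3.90 CPM with DMSO), as were GATAD2B (0.43, at 80.9 and 60.1 CPM) and the helicase gene CHD3 (0.42, at 267 and 200 CPM). GATAD2A was lower (-0.34, at 106 and 134 CPM). None of the 18 passed in SEMK2, with the ENL guides or in mice in edgeR's test, where 1.36%, 10.3% and 0.0328% of all genes did.

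The cereblon ligase genes split. CRBN, the substrate receptor, was higher at 24 h (0.23, at 40.6 CPM with MS41 and 34.6 CPM with DMSO, edgeR adjusted p = 4.0e-06), as was CUL4B (0.24, adjusted p = 5.1e-10). CUL4A (-0.34, adjusted p = 1.1e-15) and DDB1 (-0.19, adjusted p = 5.2e-09) were lower, and RBX1 did not pass (0.03, adjusted p = 0.66). In that comparison 44.3% of all genes were called. At 6 h only CUL4A and DDB1 passed, both lower, where 26% of all genes were called. In SEMK2, with the ENL guides and in mice none of the 5 passed in edgeR's test, where 1.36%, 10.3% and 0.0328% of all genes did. Of 10 other genes whose proteins are drug-induced cereblon substrates, 2 were higher and 7 lower at 24 h (median -0.27, all genes 0.02), where 21.4% of all genes were higher and 22.9% lower. The translation termination factor gene GSPT1 was lower (-0.47, at 296 and 409 CPM), as were ZBTB16 (-1.05) and ZNF692 (-0.45), and SALL4 was higher (0.72).

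Of 7 other C2H2 regulators of lymphoid cells tested in MV4;11, 2 were higher and 3 lower after 24 h of MS41, where 44.3% of all genes were called. In that comparison the repressor genes BCL6 (2.68, at 5.45 CPM with MS41 and 0.848 CPM with DMSO) and PRDM1 (2.09, at 28.0 and 6.59 CPM) were higher. BCL11A (-0.56), ZEB2 (-0.42) and ZBTB7A (-0.16) were lower, and ZEB1 (0.55, edgeR adjusted p = 0.063) and BCL11B (0.10, adjusted p = 0.84) did not pass. In SEMK2, BCL6 (0.52, at 24.9 and 17.3 CPM) and ZEB1 (0.50, at 9.50 and 6.71 CPM) were higher and BCL11A (-0.17) lower, and the other 5 of the 8 did not pass. There 1.36% of all genes were called.

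Of 30 lymphoid genes known to be bound or regulated by Ikaros, mostly from mouse cells, 20 were tested in MV4;11 and 23 in SEMK2. In MV4;11 after 24 h of MS41, 4 were higher and 4 lower (median 0.12, all genes 0.02), a share near the 44.3% of all genes called. The adaptor gene BLNK (3.28, at 2.26 CPM with MS41 and 0.232 CPM with DMSO) and the B-cell receptor gene CD79A (1.97, at 0.341 and 0.0875 CPM) were higher, and the surrogate light chain gene IGLL1 (-1.89, at 1.04 and 3.86 CPM) and TERT (-1.40) were lower. In SEMK2, 3 were higher and 1 lower (median -0.04, all genes 0.00093), where 1.36% of all genes were called. MS4A1 (1.18), VPREB3 (0.53) and the cytokine receptor gene IL7R (0.35, at 155 and 121 CPM) were higher and LEF1 was lower (-0.22).

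Notch targets that Ikaros restrains in mouse T cells numbered 8, of which 5 were tested. After 24 h of MS41 in MV4;11, TRIB2 (1.28, at 0.450 CPM with MS41 and 0.184 CPM with DMSO) and NOTCH1 (0.38) were higher and NRARP (-1.24) and MYC (-0.95) lower, where 44.3% of all genes were called. In SEMK2 TRIB2 was higher (0.25, at 147 and 124 CPM), where 1.36% of all genes were called. Of 19 myeloid and progenitor genes, 9 of 18 tested were higher and 7 lower at 24 h in MV4;11, where 21.4% of all genes were higher and 22.9% lower. ITGAM (3.53, at 11.7 and 1.01 CPM), ANXA1 (2.44), CSF1R (1.83) and KIT (1.70) had the largest changes, all higher. In SEMK2, with the same 1.36% of all genes called, HOXA10 (-1.44, at 15.6 and 42.4 CPM), HOXA9 (-0.81) and MEIS1 (-0.26) were lower and IRF4 (0.31) higher. In mice HOXA9 was the 1 gene of 17 tested that passed (-0.90, edgeR adjusted p = 0.015), lower with MS41, where 0.0328% of all genes were called.

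Across the 24 MV4;11 libraries with compounds or DMSO, the genes whose log2 CPM were most like those of each member were found by Pearson's r over 9251 genes with an average log2 CPM of at least 3. These values describe the libraries, which share treatments and times, and carry no p. IKZF1 was most like HNRNPK (r = 0.991), PPP1CC (0.987), ABCB10 (0.984), SCD (0.984) and MSL1 (0.984). HNRNPK averaged 968 CPM after 24 h of MS41 and 1153 CPM with DMSO, a log2 difference of -0.25, and in SEMK2 it differed by -0.02 (edgeR adjusted p = 0.90), where IKZF1 was lower. IKZF5 was most like COPS2 (0.960), SUB1 (0.956), ARHGAP11A (0.954), TPP2 (0.946) and ZNF800 (0.941). IKZF2 was most like NEK2 (0.898), ZNF776 (0.884), LMNB1 (0.861), SPATS2L (0.858) and FAM172A (0.852). IKZF4 was most like SLC35A5 (0.831), SLX4 (0.812), TBC1D22B (0.801), DYNLT3 (0.799) and ASF1B (0.798). IKZF3, whose counts are few there, had lower values, with TRIM66 (0.768), ELMOD3 (0.745), LIMD1 (0.741) and FAM234B (0.729) among the most like. Over the 15 group means IKZF3 was most like UBASH3B (0.991), PAN3 (0.988), TAPT1 (0.988), ARID1B (0.986) and TTC39C (0.986), a likeness set mainly by the gap between SEMK2 and MV4;11: UBASH3B averaged 1019 CPM in SEMK2 with MS41 and 1152 CPM with DMSO, and 20.3 CPM in MV4;11 after 24 h of DMSO.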

How the data were processed

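Gene counts of polyA RNA were deposited by the authors as 4 tables: whole-number counts for the MV4;11 compound, guide and SEMK2 tables, and for the mouse table values that need not be whole, read here as estimated counts and rounded to whole numbers. CASAVA 1.8, HISAT2 2.1.0, HTSeq 0.11.3 and hg38 are named in the submitters' processing notes. The strand setting is not given in the sources used here. In the mouse table the means of same-numbered MS41 and vehicle libraries had a median SD of 0.00207 (log2, 9508 genes) across the 3 pairs, against 0.0295 to 0.0481 for the other matchings, and their deviations from the group means correlated at -0.993, -0.967 and -0.981. The estimated counts of the mouse table, as deposited by the authors, thus appear from their values to have been adjusted by pair before deposit, by a step that is not given in the sources used here.

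Genes passing filterByExpr (minimum count 10, minimum total 15) were scaled by TMM and tested per table with edgeR 4.0.16 (quasi-likelihood, robust) in R 4.3.3, with Benjamini-Hochberg adjustment over all genes of a comparison and calls at an adjusted p under 0.05. The mouse fit kept the pair number as a block. Residual degrees of freedom were 16, 3, 4 and 2 for the MV4;11 compound, guide, SEMK2 and mouse tables, and the biological coefficients of variation were 4.77%, 9.21%, 11.0% and 13.0%. CPM are counts per 1000000 of the TMM-scaled library. Levels per kb used GENCODE 29 exons. No pair of libraries held the same values, and the scripts recovered known changes in counts simulated from these tables. The changes were simulated in genes with more counts than IKZF3 had in MV4;11. Most changes of members reported here were smaller than any simulated, so the simulation does not cover them. For the cultured cells, deviations of same-numbered libraries did not all correlate above 0.1 (MS41 and DMSO at 6 h 0.0344, 0.167 and -0.132, at 24 h 0.0825, 0.104 and 0.207, SEMK2 -0.0922, 0.416 and 0.343), so the numbers were not taken as pairs.

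The members and the gene lists were chosen with earlier results of these data known. All 5 members were named in every comparison. From each list up to 4 called genes with the largest change were named, together with the cereblon ligase genes, the C2H2 regulators, the nearest protein-coding neighbours and the 5 genes most like each member, of which 1 is not reported here. Alternatives were RLE and upper-quartile scaling, no filter, the replicate block or none, DESeq2 1.42.0, fits of only the groups compared, each library left out, and removal of a GC trend, which was added after seeing the data.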

Additional observations from a re-analysis of the deposited data

Results flagged for a closer look

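The MS41 effect on IKZF3 and IKZF5 ran in opposite directions in MV4;11 cultures and in mice, with every MS41 library on one side of its control mean. The mouse values appeared to have been adjusted by pair before deposit, so MS41 and vehicle libraries there did not vary independently of each other. Mouse libraries on one side of the mean are thus not independent agreements. For IKZF3 all 3 MS41 libraries were above the DMSO mean in MV4;11 at 6 h, in MV4;11 at 24 h and in SEMK2, and all 3 were below the vehicle mean in mice. The log2 differences were 1.14, 1.79 and 0.83 in those cultures and -1.57 in mice, so that the culture effect minus the mouse effect was 2.71, 3.36 and 2.40. The difference was not tested, and it draws on the levels of IKZF3 in culture and in mice on which the members were selected. IKZF3 had 12, 11 and 0 counts in the MS41 libraries from mice and at most 41 counts in MV4;11 cultures.

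For IKZF5 all 3 MS41 libraries were below the DMSO mean in MV4;11 at 6 h and at 24 h, with log2 differences of -0.18 and -0.23, and all 3 were above the vehicle mean in mice, with 0.19. In SEMK2 the IKZF5 difference was 0.03, with 2 MS41 libraries above the DMSO mean and 1 below. The culture effect minus the mouse effect was -0.37 at 6 h and -0.42 at 24 h, and was not tested. Neither mouse difference passed the threshold by itself, the edgeR adjusted p being 0.73 for IKZF3 and 0.60 for IKZF5. Groups held 2 or 3 libraries, too few to look for single outlying libraries.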

How the results depend on the processing

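Of 45 member results in 9 comparisons with a control, 12 passed the threshold, and 7 of these kept their side under every alternative and every library left out. No called member turned sign under any alternative or left-out library. Of the 33 that did not pass, 4 passed under some setting and 22 turned sign somewhere, most of them within 0.1 of 0 on the log2 scale. The causes of the moves below were not tested.

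Log2 differences that crossed 0 under another scaling were those of IKZF4 with PFI-6 at 24 h (0.0030 with RLE, 0.0060 with upper-quartile scaling), of IKZF2 with MS41N at 24 h (0.0064 with upper-quartile scaling) and of IKZF4 in the 24 h minus 6 h effects of MS41N (0.0025 with RLE, 0.0057 with upper-quartile) and PFI-6 (0.00050 with RLE). With no filter on low counts those were 0.010 for PFI-6 at 24 h, 0.0028 for IKZF2 with MS41N, and 0.0060 and 0.0079 for the effects of MS41N and PFI-6, and IKZF4 with ENL guide 1 was 0.0037. With DESeq2 they were 0.0029 for IKZF4 with PFI-6 at 24 h, and 0.0024 and 0.00038 for the IKZF4 effects of MS41N and PFI-6. In fits of only the groups compared IKZF2 with MS41N at 24 h was 5.3e-05, IKZF1 with PFI-6 at 24 h -0.0026 and the IKZF4 effect of MS41N 0.0013.

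With no filter the difference of IKZF1 passed with both ENL guides (-0.19, adjusted p = 0.018) and in mice (-0.24, adjusted p = 0.025). The counts of genes called were then 182 for MS41N at 6 h, 83 for MS41N at 24 h, 723 for PFI-6 at 6 h, 2803 for both ENL guides, 912 in SEMK2 and 184 in mice, against 73, 8, 466, 1853, 291 and 7. With DESeq2 IKZF4 with MS41 at 24 h was 0.15 (adjusted p = 0.053), IKZF1 in mice passed (-0.23, adjusted p = 0.049), and the counts were 148 for MS41N at 6 h, 70 for MS41N at 24 h, 779 for PFI-6 at 6 h, 734 in SEMK2 and 70 in mice. In fits of only the groups compared the counts were 119 for MS41N at 6 h, 4 for MS41N at 24 h and 886 for PFI-6 at 6 h. DESeq2 gave no adjusted p for IKZF3 in most comparisons, and 3 fits of only the groups compared left it out.

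Removing a GC trend, chosen after seeing the data, ended the calls of IKZF4 with MS41 at 24 h (0.11, adjusted p = 0.15) and of IKZF2 with PFI-6 at 24 h (0.11, adjusted p = 0.53), and for MS41 against PFI-6 at 24 h those of IKZF2 (-0.16, adjusted p = 0.065) and IKZF4 (0.094, adjusted p = 0.23). It gave 0 calls for MS41N at 24 h, 423 for PFI-6 at 24 h (2806 before) and 985 in SEMK2. It turned the sign of IKZF2 with MS41 at 24 h (-0.041), of IKZF5 with MS41N at 6 h (-0.023) and 24 h (-0.043), with PFI-6 at 6 h (-0.040) and 24 h (-0.046) and in SEMK2 (-0.027), and of IKZF1 (-0.00082) and IKZF4 (0.014) with PFI-6 at 24 h. The 24 h minus 6 h effects turned to -0.014, 0.0037 and -0.021 for IKZF2, IKZF4 and IKZF5 with MS41N and to 0.010 and -0.0055 for IKZF4 and IKZF5 with PFI-6. The share of higher genes among those called in SEMK2 was 61.9%, and 46.6% with no filter, 50.3% with the replicate block and 45.1% with the GC trend removed. For PFI-6 at 6 h it was 32.2%, and 46.7% with upper-quartile scaling and 22.2% with the GC trend removed.

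Deviations of same-numbered guide 1 and control libraries correlated at 0.670 and those of guide 2 and control libraries at 0.00632, over only 2 numbers, which does not settle whether they pair. With the replicate number as a block IKZF1 with both ENL guides passed (-0.21, adjusted p = 0.021), the IKZF4 effect of MS41N was 0.00018, and 3203 genes were called for both ENL guides and 662 in SEMK2. In the comparisons with a control the block changed no other call of a member. It moved IKZF4 for MS41 against MS41N at 24 h to an adjusted p of 0.042 and the 24 h minus 6 h effect of MS41 on IKZF1 to 0.046. In mice, where the block was kept, the fit without the replicate block gave -0.23 for IKZF1 (adjusted p = 0.033) and 523 genes called.

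Leaving out each library in turn gave the following ranges. IKZF3 was 0.73 to 2.23 with MS41 at 6 h, 1.39 to 2.03 with MS41 at 24 h, -0.30 to 1.18 with MS41N at 6 h, -0.89 to 0.18 with MS41N at 24 h, -0.61 to 0.52 with PFI-6 at 24 h, -0.33 to 0.34 for MS41 against PFI-6 at 6 h, -0.78 to 0.71 for DMSO at 24 h against 6 h and -0.25 to 0.37 for ENL guide 2 against ENL guide 1. IKZF4 was 0.17 to 0.23 with MS41 at 6 h, 0.12 to 0.19 with MS41 at 24 h, -0.061 to 0.10 with MS41N at 6 h, -0.0040 to 0.024 with MS41N at 24 h, -0.037 to 0.029 with PFI-6 at 6 h, -0.028 to 0.023 with PFI-6 at 24 h, -0.11 to 0.0024 with both ENL guides, -0.068 to 0.046 with ENL guide 1 and -0.15 to 0.070 in mice. IKZF2 was -0.0066 to 0.086 with MS41 at 24 h, -0.036 to 0.035 with MS41N at 6 h, -0.046 to 0.033 with MS41N at 24 h, -0.11 to 0.00038 with PFI-6 at 6 h, 0.19 to 0.28 with PFI-6 at 24 h, -0.0033 to 0.088 for MS41 against MS41N at 24 h, -0.62 to 0.017 with both ENL guides, -0.58 to 0.064 with ENL guide 1 and -0.067 to 0.32 in mice. IKZF5 was -0.029 to 0.032 with MS41N at 6 h, -0.039 to 0.057 with MS41N at 24 h, -0.012 to 0.041 with PFI-6 at 6 h, -0.018 to 0.087 for ENL guide 2 against ENL guide 1 and -0.015 to 0.11 in SEMK2. IKZF1 was -0.0062 to 0.021 with MS41N at 24 h, -0.013 to 0.022 with PFI-6 at 24 h, -0.31 to -0.10 with both ENL guides, -0.078 to 0.063 for ENL guide 2 against ENL guide 1 and -0.20 to -0.18 in SEMK2. The 24 h minus 6 h effects were -0.44 to 1.06 for IKZF3 with MS41, for MS41N -0.039 to 0.042 (IKZF2), -1.50 to 0.092 (IKZF3), -0.091 to 0.070 (IKZF4) and -0.044 to 0.052 (IKZF5), and for PFI-6 -0.030 to 0.039 (IKZF4) and -0.0014 to 0.079 (IKZF5). Counts of genes called were 12 to 64 for MS41N at 6 h, 0 to 9 for MS41N at 24 h, 126 to 309 for PFI-6 at 6 h, 1381 to 2458 for PFI-6 at 24 h, 940 to 2621 for both ENL guides, 100 to 2986 in SEMK2 and 0 to 35 in mice. A guide group left with 1 library was assumed to vary like the others. IKZF3 counts of at most 41 in MV4;11 limit what its depth can show.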
